A study of Mus musculus with 6 samples.

Results

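DN NK1.1+ lymphocytes of the mouse mammary gland are described here by their own RNA profile. They were chosen by label: 3 of the 6 bulk RNA libraries carry the cell type label DN NK1.1+, and these 3 make up the population, as replicates 1, 2 and 3. Pregnant mice at E18.5, late in gestation, gave the mammary glands from which the cells were sorted. DN stands for double negative, and which markers are absent is not named. One label field calls the cells lymphocytes and another T cells. The sources used here give no strain, genotype, age or treatment. Whether the libraries came from separate animals is not stated, so their spread may be technical. The other 3 libraries hold CD8 beta+ T cells, which entered only the scaling of library sizes and the filter on low counts. The study's question was if intraepithelial lymphocytes of unconventional type influence how epithelial and basal cells of the gland differentiate.

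NK1.1 is a C-type lectin receptor on natural killer (NK) cells, on some innate lymphoid cells and on some T cells of mice. T cells recognise antigen through an alpha-beta or a gamma-delta T cell receptor (TCR), which signals through CD3 chains, whereas most activating NK receptors signal through small adaptor proteins that carry or couple to tyrosine motifs. Unconventional lymphocytes that live inside epithelia can carry a TCR and NK receptors on the same cell, and many hold the CD103 integrin, which binds E-cadherin on epithelial cells. A bulk library sums all sorted cells. It does not tell which transcripts shared a cell, and a smaller number of expressing cells cannot be told apart from less RNA per cell.

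The libraries held 11440721, 11905153 and 12820875 counts, and 17269, 17042 and 18646 genes had a count. Levels are given as CPM, counts scaled to library size, where 1 count was worth 0.0757 to 0.086 CPM. A gene with 0 counts in a library was taken to lie below the floor of 3 counts, which is 0.227 to 0.258 CPM and covers counting error only. Replicates 1 and 2 were the closest pair, with a chi-square over genes of 9.46 per degree of freedom, against 21.9 and 21.7 for the pairs with replicate 3. No pair therefore agreed within counting noise, and the libraries were counted as 3 samples. Replicate 3 stood apart in RNA of other mammary cells. The summed level of 10 myoepithelial markers was 12.0, 27.0 and 225 CPM in replicates 1, 2 and 3, and that of 7 fibroblast markers was 42.1, 1.84 and 147 CPM. Milk and luminal markers, 21 genes, summed to 528, 1300 and 2440 CPM. Replicate 1 stood apart in the immunoglobulin light chain Igkc, at 235 CPM against 77.7 and 74.0 CPM.

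The 6 marker genes were read first, and all had at least 10 CPM in each library. Since NK1.1 is part of the label, this describes the cells and does not test the label. Klrb1c, which encodes NK1.1 (chromosome 6, 128778485 to 128789215, minus strand, build mm10), reached 640.2, 658 and 616 CPM in replicates 1, 2 and 3. Ncr1, the gene of the activating NK receptor NKp46 (chromosome 7, 4337724 to 4345164), reached 252, 293 and 274 CPM. Fcer1g, the gamma chain adaptor of Fc receptors (chromosome 1, 171229572 to 171234365), stood at 761, 773 and 916 CPM. These levels differed by at most 1.20-fold between libraries. The granzyme genes followed, with Gzma (chromosome 13, 113093825 to 113100981) at 1536, 1611 and 1794 CPM and Gzmb (chromosome 14, 56258838 to 56262260) at 2559, 2497 and 2332 CPM. Gzma was highest in replicate 3 and Gzmb lowest there. Trdc, the constant gene of the TCR delta chain (chromosome 14, 54142851 to 54148868), was read at 85.0, 101 and 78.9 CPM.

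Genes of the sort and of classical T cell coreceptors divided sharply. Ptprc (CD45), carried by all leukocytes, was at 2538 ± 219 CPM (SD, n = 3), and Thy1 (CD90) was at 517 ± 72.4 CPM. Cd4 was low, with 2.24, 0.92 and 0.908 CPM. Cd8b1, the CD8 beta chain, was at 4.30, 2.17 and 1.21 CPM, while Cd8a, the CD8 alpha chain, was at 174, 160 and 151 CPM. Both CD8 genes were highest in replicate 1 and lowest in replicate 3. Per kilobase of merged exon, Cd8a exceeded Cd8b1 by 16.5-, 30.1- and 50.7-fold in replicates 1, 2 and 3. The mean was 29.3-fold, and 62.0-fold by coding length. The alpha chain can form a homodimer without the beta chain.

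The population's profile was next ranked across genes. To compare genes of different length, CPM was divided by the length of a gene's merged exons in kilobases, and 11174 protein-coding genes past the low-count filter were ranked by the mean. Leaving out mitochondrial, ribosomal protein and predicted genes, the order began with Eef1a1 (a translation factor), B2m (the light chain of MHC class I), Tmsb4x and Actb. The chemokine gene Ccl5 came next at rank 17, with 1862 ± 78.0 CPM per kilobase (SD, n = 3). Gzmb at rank 20 and Gzma at rank 21 followed, with 1715 ± 81.5 and 1637 ± 132 CPM per kilobase. Lymphocyte effector genes thus stood among the housekeeping genes Tpt1, Ubb, Eef2 and Actg1. The other lymphocyte genes among the first 15 were Cd7 (rank 35), an immunoglobulin-family surface protein of T and NK cells, Fcer1g (rank 38) and Nkg7 (rank 40), which encodes a protein of cytotoxic granules. Below them came Il2rb (rank 57), Tyrobp (rank 62), Xcl1 (rank 71) and Klra7 (rank 90).

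**Figure D1:**
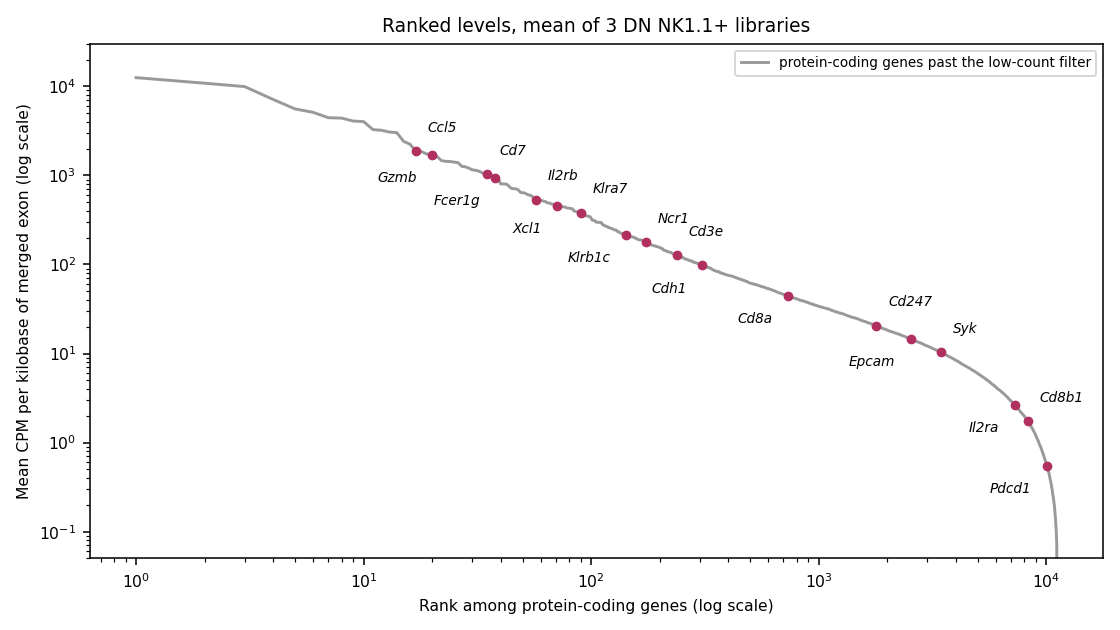
Mean CPM per kilobase of merged exon over the 3 DN NK1.1+ libraries (vertical, log scale) against rank among 11174 protein-coding genes past the low-count filter (horizontal, log scale); red points mark named genes on the grey curve of all genes. Ccl5, Gzmb, Cd7 and Fcer1g sit within the first 40 ranks, Klrb1c, Ncr1, Cd3e and Cdh1 between ranks 143 and 307, and Cd8b1 at rank 8307.

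Gene lists gave the same picture in counts. The sort genes and 18 lists of lymphocyte genes hold 282 genes of the table, and 206 of them, or 73.05%, had at least 10 CPM in each of the 3 libraries, against 31.9% of all 21951 protein-coding genes. Of the 244 protein-coding members past the low-count filter, 62, or 25.41%, ranked among the top 500 per kilobase, against 4.47% of all ranked genes. The lists were written for lymphocytes, so a high share of them is a description of the sort and not a test. The 31.9% of all protein-coding genes is the background for every share of list members at 10 CPM given below. The median rank per kilobase was 323.5 for CD3 and zeta chains, 523 for activating NK receptors, 708.5 for residency genes and 8602 for cytokines and chemokines. In CPM the medians of these lists were 328, 176, 208 and 1.83, beside 1.06 CPM for all protein-coding genes and 21.6 CPM for those past the filter.

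TCR genes of both lineages were read together. Trac, the alpha constant gene (chromosome 14, 54220521 to 54224206), reached 256, 234 and 233 CPM. The beta constant genes reached 118, 128 and 126 CPM for Trbc1 and 128, 142 and 161 CPM for Trbc2. Among gamma constant genes, Tcrg-C2 was at 168, 159 and 160.2 CPM, Tcrg-C1 at 123, 115 and 105 CPM, and Tcrg-C4 at 68.1, 81.2 and 73.2 CPM. Tcrg-C3 stayed at 2.07 to 4.77 CPM, so 7 of the 8 constant genes passed 10 CPM in every library.

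The constant genes of a chain are near copies, and how the deposited counting treated reads that match both is not known. The coding parts of Trbc1 and Trbc2, on chromosome 6 at 41538218 to 41539881 and 41546730 to 41548352, were 95.56% identical over 518 aligned bases, with 23 differences. Those of Tcrg-C1 and Tcrg-C2, on chromosome 13 at 19214103 to 19217024 and 19304649 to 19307551, were 97.4% identical over 500 bases, with 13 differences. A stretch of 90 coding bases of each gene is shown 5′ to 3′ from GENCODE M21 transcripts (build mm10), to show where a read can and cannot be placed. Capitals mark the bases that differ between the pair. The beta genes are shown at coding bases 400 to 489 and the gamma genes at 110 to 199.
Trbc1: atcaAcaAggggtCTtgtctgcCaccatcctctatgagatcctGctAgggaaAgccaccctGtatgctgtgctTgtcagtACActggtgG
Trbc2: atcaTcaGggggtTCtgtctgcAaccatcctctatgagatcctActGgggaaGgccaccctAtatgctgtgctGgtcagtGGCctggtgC
Tcrg-C1: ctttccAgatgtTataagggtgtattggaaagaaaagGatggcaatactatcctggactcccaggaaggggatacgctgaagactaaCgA
Tcrg-C2: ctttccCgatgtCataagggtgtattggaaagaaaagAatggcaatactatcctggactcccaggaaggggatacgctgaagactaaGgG
The beta stretch holds 14 of that pair's differing bases and the gamma stretch holds 5. Of all 50-base windows of the transcripts, 40.54% of Trbc1, 44.01% of Trbc2, 34.17% of Tcrg-C1 and 25.43% of Tcrg-C2 were also found in another gene. None of the windows of Trac or Tcrg-C4 were. Single values of Trbc1, Trbc2, Tcrg-C1 and Tcrg-C2 are therefore uncertain, and their sums are used where possible.

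Summed per kilobase of merged exon, both beta constant genes gave 372 ± 29.1 CPM per kilobase and the 4 gamma constant genes 382 ± 11.9 CPM per kilobase (SD, n = 3). Beta sums were 342, 376 and 399 CPM per kilobase in replicates 1, 2 and 3, and gamma sums were 389, 388 and 368 CPM per kilobase. The ranges overlapped, with gamma above beta in replicates 1 and 2 and below it in replicate 3. Gamma transcripts can also be made by cells that express an alpha-beta receptor, so their level is no count of gamma-delta cells. The delta constant gene was lower than the alpha constant gene in every library. The ratio of Trdc to Trac per kilobase of merged exon was 0.0804, 0.104 and 0.0819, a mean log2 of −3.50 ± 0.21 (SD, n = 3). The size of this ratio depends on the length used, since the merged exons of Trdc span 3865 bases and its coding part 458. Per kilobase of coding sequence the ratio was 0.326, a log2 of −1.62, still below 1.

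Variable segments of all 4 chains were read at low levels. Trav segments, the alpha variable genes, summed to 100.2, 77.2 and 99.3 CPM, and Trbv segments to 119, 97.8 and 116 CPM. Of 108 Trav genes 73 had at least 10 counts in total, and of 22 Trbv genes 20 had. Sequence shared between variable segments was not measured, so these counts and the shares of single segments are uncertain. On the mean over libraries, no Trav gene took more than 6.66% of the Trav total. That was the share of Trav15d-1-dv6d-1, which lay between 6.07% and 7.30% in single libraries. The dv in its name marks a segment shared with the delta chain, and such genes were counted with Trav only. Trbv3 took 17.0% of the Trbv total. Tcrg-V segments, only 6 genes, summed to 49.0, 48.4 and 36.3 CPM and were more uneven. Tcrg-V4 held 56.1% of them, between 54.4% and 59.8% in the 3 libraries, and Tcrg-V1 held 23.8%. Trdv segments, without the shared ones, summed to 4.90, 4.52 and 5.07 CPM, too few for an order among them. The annotated invariant alpha segment of natural killer T cells, Trav11, had 0 counts in all 3 libraries, and its copy Trav11d had at most 0.585 CPM.

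The CD3 chains, which carry the TCR signal, were unequal. Cd3g was at 725, 673 and 593 CPM, Cd3e at 522, 513 and 527 CPM, and Cd3d at 157, 116 and 134 CPM. Cd247, the zeta chain, was at 111, 98.8 and 116 CPM. Cd3e was the steadiest of them, with an SD of 7.44 CPM around 521 CPM. Per kilobase of merged exon the order was Cd3g at 203 ± 20.3, Cd3e at 128 ± 1.82, Cd3d at 74.7 ± 11.2 and Cd247 at 20.4 ± 1.69 CPM per kilobase (SD, n = 3), with no overlap between neighbours, and coding length kept the order. Zeta to epsilon gave a log2 ratio of −2.65 ± 0.10, or 6.26-fold lower zeta, and 6.62-fold lower by coding length. Trac stood 2.02-fold above Cd3e per kilobase of merged exon but at 0.639 of it by coding length, so the order of these 2 genes is not settled.

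**Figure D2:**
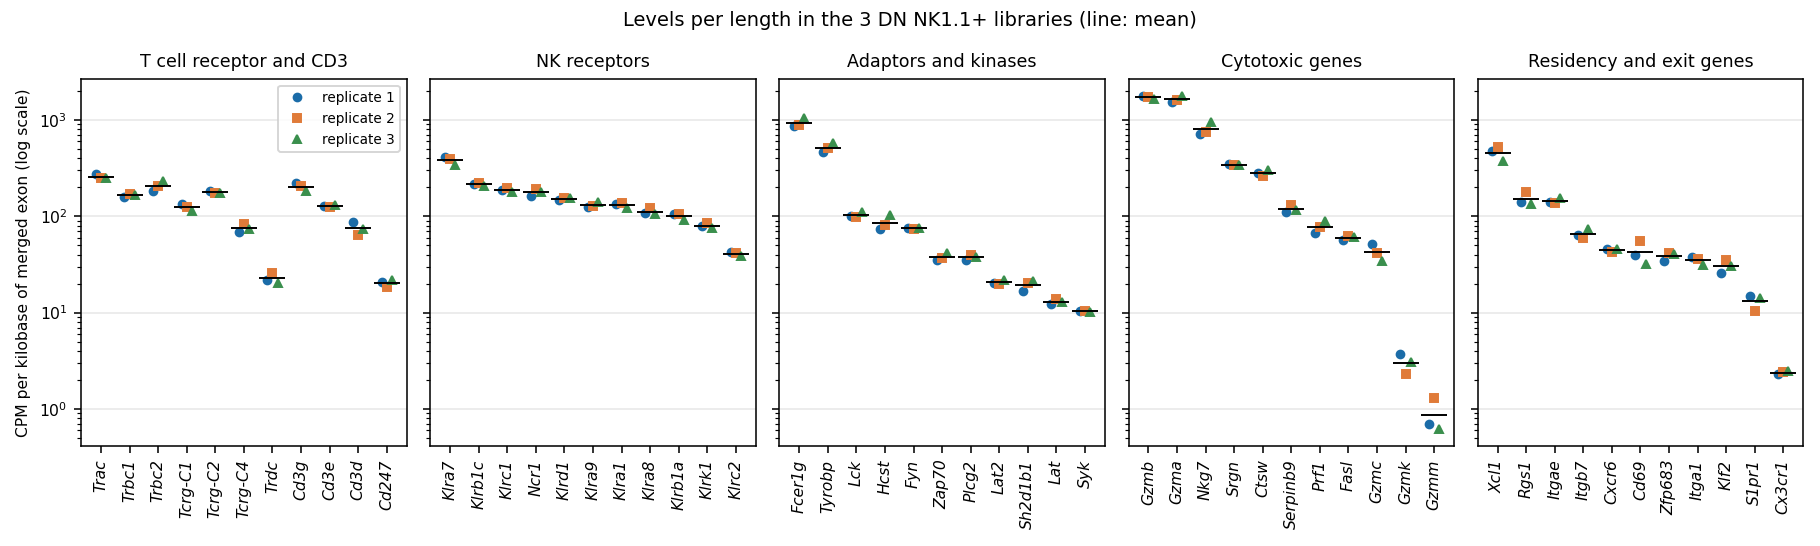
CPM per kilobase of merged exon (log scale) of genes of the T cell receptor and CD3, NK receptors, adaptors and kinases, cytotoxic genes, and residency and exit genes; symbols are the 3 replicates and lines are means. Fcer1g and Tyrobp lie above every TCR and CD3 gene shown, Gzmb and Gzma lie highest in the cytotoxic panel at 1715 and 1637, and Gzmk and Gzmm lie lowest in it.

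The adaptors Fcer1g and Tyrobp stood above the CD3 chains per kilobase of merged exon. Fcer1g reached 934 ± 98.2 CPM per kilobase and Tyrobp, whose protein DAP12 serves many activating NK receptors, 513 ± 56.1 CPM per kilobase. Hcst, which encodes the adaptor DAP10 of the receptor NKG2D, was lower at 85.3 ± 15.2 CPM per kilobase. All these adaptors were highest in replicate 3. Tyrobp was read at 308, 338 and 382 CPM and Hcst at 52.6, 58.4 and 73.8 CPM. Fcer1g and Tyrobp are also expressed in myeloid cells. The summed level of 13 macrophage and monocyte markers was 516, 339 and 442 CPM, in another order over the replicates, and its part in the adaptor levels was not tested.

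Fcer1g exceeded Cd247 by 41.7-, 47.7- and 48.0-fold per kilobase of merged exon in replicates 1, 2 and 3. Both proteins carry tyrosine activation motifs and can pair with the same NK receptors. The mean was 45.7-fold by merged exons, 32.4-fold by the longest transcript and 17.7-fold by coding length, so the direction held under every length while the size did not. Fcer1g exceeded Cd3e by 7.30-fold by merged exons and by 2.67-fold by coding length. It exceeded Tyrobp by 1.82-fold and 3.41-fold on these scales, so Tyrobp fell below Cd3e by coding length. Tyrobp exceeded Hcst by 6.06-fold by merged exons and 2.80-fold by coding length. Sh2d1b1, an adaptor of SLAM family receptors, was at 42.6, 51.1 and 54.3 CPM, and Sh2d1a, its relative SAP, at 26.5, 26.1 and 18.2 CPM.

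All 16 activating NK receptor genes on the list had at least 10 CPM in each library. Klrb1c stood at rank 143 and Ncr1 at rank 174. Klrd1 (CD94), the common partner of NKG2 receptors, was at 187, 199 and 196 CPM, rank 204. Klrk1 (NKG2D), a receptor for stress ligands on epithelial cells, was at 575, 606 and 536 CPM. Cd226, which binds nectin-family ligands, was at 411, 409 and 350 CPM, and Cd244a at 230, 257 and 219 CPM. Fcgr3, a receptor for the Fc part of antibodies, was at 39.4, 34.0 and 40.6 CPM, rank 1679. Crtam, a receptor of activated lymphocytes, was at 28.8 to 31.3 CPM, rank 5087. These receptors varied little, and Klrd1 had an SD of 6.31 CPM around its mean of 194 CPM.

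Of 19 genes listed as inhibitory receptors 16, or 84.21%, passed 10 CPM in each library. The list also holds Klre1 and Klri2, which are not strictly inhibitory. Klra7, a Ly49 receptor for MHC class I, led at 518, 499 and 431 CPM, rank 90. Klrc1 (NKG2A), which pairs with CD94, followed at 370, 393 and 357 CPM, rank 167. Klra9 was at 161 to 182 CPM and Klra1 at 214 to 239 CPM. Cd96 was at 268, 254 and 225 CPM and Tigit at 67.5, 67.2 and 72.5 CPM, both receptors that share ligands with CD226. Klrg1, a receptor of mature NK and effector T cells, was at 17.7 ± 3.27 CPM (SD, n = 3), rank 2922. Lag3, Ceacam1 and Pilra were below 10 CPM in at least 1 library.

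The receptor families differed in their make-up. The 11 Klra genes summed to 986 ± 53.1 CPM per kilobase, 8 of them passed 10 CPM in each library, and Klra7 gave 38.7% of the sum. Klrb1 genes summed to 461 ± 19.3 CPM per kilobase, of which Klrb1c gave 46.7%. Klrc genes summed to 251 ± 14.2 CPM per kilobase, with 75.1% from Klrc1. Inhibitory Klrc1 exceeded activating Klrc2 by 4.60-fold by merged exons and by 1.62-fold by coding length. These genes share sequence, which limits single values: 38.57% of the 50-base windows of Klrc1, 33.13% of Klra8, 31.48% of Klra9, 16.98% of Klrb1c and 12.3% of Klra7 were found in another gene. None of the windows of Ncr1, Klrd1 or Klrk1 were. The Ly49 genes also differ between strains, and the strain is not given, and its part in the levels of single Klra genes was not tested.

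When NK and T cell receptor genes were set side by side, their order depended on the length used. Ncr1 exceeded Cd3e by 1.28-, 1.51- and 1.38-fold per kilobase of merged exon, but the longest transcript gave 0.892 and the coding length 0.304, so the order of these genes turned with the length. Klrb1c exceeded Ncr1 by 1.22-fold by merged exons and by 2.67-fold by coding length. Klrk1 and Hcst, a receptor and its adaptor, gave log2 ratios of 0.14, 0.06 and −0.45 per kilobase of merged exon, with replicate 3 on the other side of 0. Klrk1 was the higher by other lengths, by 1.27-fold by longest transcript and 3.11-fold by coding length.

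Of 18 genes listed for TCR signalling, 17, or 94.44%, passed 10 CPM in each library. The list holds kinases and scaffolds but also phosphatases such as Ptpn22. Lck, the kinase that starts TCR signalling, was at 295, 290.1 and 326 CPM and Fyn at 329, 319 and 328 CPM. Of the kinases that bind tyrosine motifs, Zap70 was at 105, 110.0 and 123 CPM and Syk at 97.3, 96.8 and 95.1 CPM. Syk was 3.65-fold lower than Zap70 per kilobase of merged exon, and 1.19-fold lower by coding length. Lat2, a scaffold of B, NK and myeloid cells, stood 1.59-fold above Lat, the scaffold of the TCR, per kilobase of merged exon, with log2 ratios of 0.72, 0.51 and 0.76. Plcg2 was at 151 to 170 CPM and Plcg1 at 58.1 to 63.4 CPM. Themis, which acts in T cell selection, was the member below the minimum, at 14.4, 8.86 and 4.39 CPM. Cd5 and Cd6, inhibitory receptors of conventional T cells, stood at 10.1 ± 0.809 and 16.7 ± 0.981 CPM (SD, n = 3), at ranks 7927 and 7862. Thy1 stood at rank 180, and Cd7 was at 1182, 1178 and 1123 CPM.

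The cytotoxic programme was dominated by few genes. Of 25 listed genes with a row, 18, or 72.0%, passed 10 CPM in each library. Gzmb and Gzma differed by less than their spread per kilobase of merged exon, with ratios of 1.17, 1.09 and 0.911. The order reversed in replicate 3, and by coding length Gzmb was 1.70-fold the higher. The 10 granzyme genes summed to 3398 ± 41.8 CPM per kilobase, and only Gzma, Gzmb and Gzmc passed 10 CPM in each library. Gzmc was at 46.0, 37.2 and 30.4 CPM. Gzmk, a granzyme of memory T cells, was at 5.16, 3.18 and 4.32 CPM, and Gzma exceeded it by 549-fold per kilobase of merged exon. Gzmm was at 0.908 to 1.92 CPM. Gzmd, Gzme, Gzmg and Gzmn had 0 counts in all 3 libraries.

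Perforin, the pore-forming partner of granzymes, was lower than either granzyme per kilobase. Prf1 was at 173, 202 and 228 CPM, and Gzmb exceeded it by 22.2-fold per kilobase of merged exon and by 27.7-fold by coding length. Other granule genes ranked high, with Nkg7 at rank 40, Srgn at rank 99 and Ctsw at rank 112. Nkg7 was at 658, 681 and 864 CPM, Ctsw (cathepsin W) at 534, 488 and 570 CPM, and Srgn, the proteoglycan serglycin that packs granzymes, at 756, 753 and 752 CPM. Srgn was the steadiest of the list, with an SD of 2.31 CPM. Serpinb9, the inhibitor that protects cells from granzyme B, was at 389, 458 and 406 CPM, 14.4-fold below Gzmb per kilobase of merged exon and 8.94-fold by coding length. Death ligands were also read, with Fasl at 109, 121 and 117 CPM and Tnfsf10 (TRAIL) at 265, 260.1 and 231 CPM. Of the genes of granule release, Rab27a was at 28.2 ± 1.85 and Unc13d at 14.6 ± 4.10 CPM per kilobase (SD, n = 3). Unc13d was high in replicate 3, at 90.6 CPM against 58.6 and 56.4 CPM.

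All 18 genes of the residency list passed 10 CPM in each library. Itgae, the alpha chain of CD103 (chromosome 11, 73090583 to 73147446), was at 649, 623 and 709 CPM, and its partner Itgb7 at 176, 165 and 203 CPM. Itgae exceeded Itgb7 by 2.21-fold per kilobase of merged exon, with an SD of 0.06 on the log2 scale. Itga1 (CD49a), a collagen receptor of tissue-resident NK and T cells, was at 702, 672 and 583 CPM. Itga2 (CD49b), an integrin of NK cells of blood and spleen, was at 156, 139 and 139 CPM. Itga1 exceeded Itga2 by 1.73-fold per kilobase of merged exon, and by 4.52-fold by coding length. Cxcr6, a chemokine receptor of resident lymphocytes, was at 87.6, 81.4 and 88.5 CPM. It exceeded Cx3cr1, a receptor of circulating effector cells, by 18.7-fold by merged exons and by 7.91-fold by coding length.

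Transcription factors of residency were moderate. Zfp683 (Hobit) was at 50.5, 61.2 and 59.7 CPM and Prdm1 (Blimp-1) at 51.6, 53.6 and 52.8 CPM, and Hobit was 4.10-fold the higher per kilobase of merged exon and 2.09-fold by coding length. Bhlhe40 was at 395, 457 and 451 CPM, Runx3 at 146, 166 and 172 CPM, and Ahr at 148, 130.0 and 131 CPM. Cd69 varied most of the list. The gene, whose protein holds cells in tissue by opposing an exit receptor, was read at 260.2, 361 and 208 CPM, and the G protein regulator Rgs1 at 979, 1227 and 926 CPM. Both were highest in replicate 2. Cd69 exceeded S1pr1, that exit receptor, by 2.68-, 5.33- and 2.28-fold per kilobase of merged exon, with an SD of 0.65 on the log2 scale. The mean was 3.19-fold, and 13.1-fold by coding length.

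Genes listed for tissue exit and recirculation differed widely in level. Of 14 genes 12, or 85.71%, passed 10 CPM in each library. Highest per kilobase were the integrin genes Itgb2 (467, 493 and 528 CPM), Itgb1 (658, 658 and 624 CPM) and Itgal (680, 671 and 757 CPM). Their levels were not taken as a sign of recirculation. S1pr1 was at 45.5, 31.7 and 42.8 CPM and its regulator Klf2 at 47.1, 64.2 and 56.5 CPM. Ccr7 stood at 3.63 to 4.85 CPM and S1pr5, an exit receptor of NK cells, at 4.04 to 5.37 CPM. Of 16 chemokine receptor genes 6, or 37.5%, passed 10 CPM in each library, near the 31.9% of all protein-coding genes. Per kilobase they were led by Cxcr4, Cxcr6 and Ccr2, in this order. Not scaled by length, Cxcr4 was at 201 ± 22.5, Cxcr6 at 85.8 ± 3.88 and Ccr2 at 201 ± 5.47 CPM (SD, n = 3).

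The contact genes of epithelium that were read included the ligand of CD103 itself. Cdh1 (E-cadherin) was at 458, 443 and 443 CPM, rank 307, and Epcam at 30.7, 32.7 and 32.3 CPM. Both were steady over the libraries. Epithelial keratins were low and uneven, with Krt8 at 1.46, 2.17 and 8.71 CPM and Krt18 at 0.86, 1.34 and 7.95 CPM. The milk gene Csn2 was at 138, 397 and 912 CPM. Cdh1 did not move with the milk and keratin genes over the 3 libraries, and which cells gave its transcripts was not tested. Jaml, a junction receptor of intraepithelial T cells, was at 73.5, 62.8 and 60.9 CPM. Tight junction genes Ocln, F11r, Cldn1 and Cldn7 were each below 5 CPM in every library.

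Of the lineage transcription factors, those of type 1 lymphocytes ranked high, with Tbx21 at rank 328 and Eomes at rank 711. Tbx21 (T-bet) was at 198, 223 and 269 CPM and Eomes at 178, 196 and 195 CPM, and T-bet exceeded Eomes by 2.01-fold per kilobase of merged exon and by 1.61-fold by coding length. Ets1 was at 993 ± 26.5 CPM and Nr4a1, an early response gene, at 338 ± 60.4 CPM (SD, n = 3). Id2, an inhibitor of E proteins needed for NK cells, was at 197, 229 and 243 CPM, while its relative Id3 was at 1.55, 1.42 and 5.53 CPM. Their ratio had the widest spread of all pairs, an SD of 0.99 on the log2 scale, and Id3 was higher in replicate 3. Ikzf3 (Aiolos) was at 527 ± 31.3 CPM, and Ikzf2 (Helios), often read in intraepithelial T cells, was at 230, 228 and 181 CPM. Ikzf2 was 3.30-fold lower than Ikzf3 per kilobase of merged exon, 5.01-fold by longest transcript and 2.61-fold by coding length. Gata3 was at 93.3, 126 and 101 CPM and Tcf7 at 125, 130 and 108 CPM. Zbtb16 (PLZF), the factor of invariant T cells, was at 8.78, 1.76 and 13.5 CPM.

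Cytokine receptors were led by the shared chains of the IL-15 and IL-2 receptors. Il2rb was at 2091, 2159 and 2598 CPM, rank 57, and the shared gamma chain Il2rg at 721, 754 and 669 CPM. Il2ra (CD25), the chain that makes the IL-2 receptor high in affinity, was at 12.9, 17.7 and 14.8 CPM. Il2rb exceeded Il2ra by 202-fold per kilobase of merged exon and by 81.7-fold by coding length. Il7r was at 107, 106 and 70.5 CPM, 26.6-fold below Il2rb per kilobase of merged exon. For IL-12, Il12rb2 at 312, 326 and 273 CPM stood beside Il12rb1 at 27.8, 35.5 and 41.3 CPM, and was 9.51-fold the higher per kilobase of merged exon. The IL-18 receptor chains Il18rap and Il18r1 differed by less than their spread per kilobase of merged exon, with log2 ratios of −0.09, −0.08 and 0.27. Tgfbr2, a receptor for TGF-beta, was at 335, 306 and 335 CPM. Il1rl1, the IL-33 receptor of type 2 cells, was at 4.22, 0.92 and 0.681 CPM.

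Genes of secreted factors were read in part. Of 21 cytokine and chemokine genes 9, or 42.86%, passed 10 CPM in each library, beside 31.9% of all protein-coding genes. Ccl5 was at 1757, 1732 and 1872 CPM, and Xcl1, which draws cross-presenting dendritic cells, at 246, 273 and 197 CPM. Ccl3 was at 34.2, 50.8 and 36.9 CPM and Ccl4 at 26.2, 38.6 and 45.8 CPM, and Ccl5 exceeded Ccl4 by 34.2-fold per kilobase of merged exon. Ifng was at 48.4, 66.9 and 50.1 CPM and Tnf at 18.4, 22.5 and 14.8 CPM. Il4, Il5, Il10, Il13 and Il17a had 0 counts in all 3 libraries. Of 20 growth factor genes 5, or 25.0%, passed 10 CPM in each library, namely Tgfb1, Pdgfb, Bmp7, Vegfa and Tgfb3. Tgfb1 was at 218, 239 and 229 CPM and exceeded Tgfb3 by 11.6-fold per kilobase of merged exon, 22.8-fold by longest transcript and 16.4-fold by coding length. Bmp7 was at 26.3, 38.6 and 24.7 CPM. Areg, an epidermal growth factor ligand, was at 2.07 to 2.80 CPM.

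Across all 45 pairs of related genes, 42 had the same sign of the log2 ratio in all 3 libraries, and in 32 the first gene was the higher in all of them. The median SD of a log2 ratio over the libraries was 0.14. With 3 libraries, the smallest 2-sided p of an exact sign-flip test is 0.25, so no ratio was tested. Against merged exons, coding length moved 36 ratios by more than their SD over the libraries. It reversed 2 more, Trac/Cd3e and Ncr1/Cd3e. The mean ratio of 41 pairs kept its sign under merged exon, longest transcript and coding length, and the others were Trac/Cd3e, Ncr1/Cd3e, Klrd1/Klrc1 and Klrk1/Hcst.

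**Figure D3:**
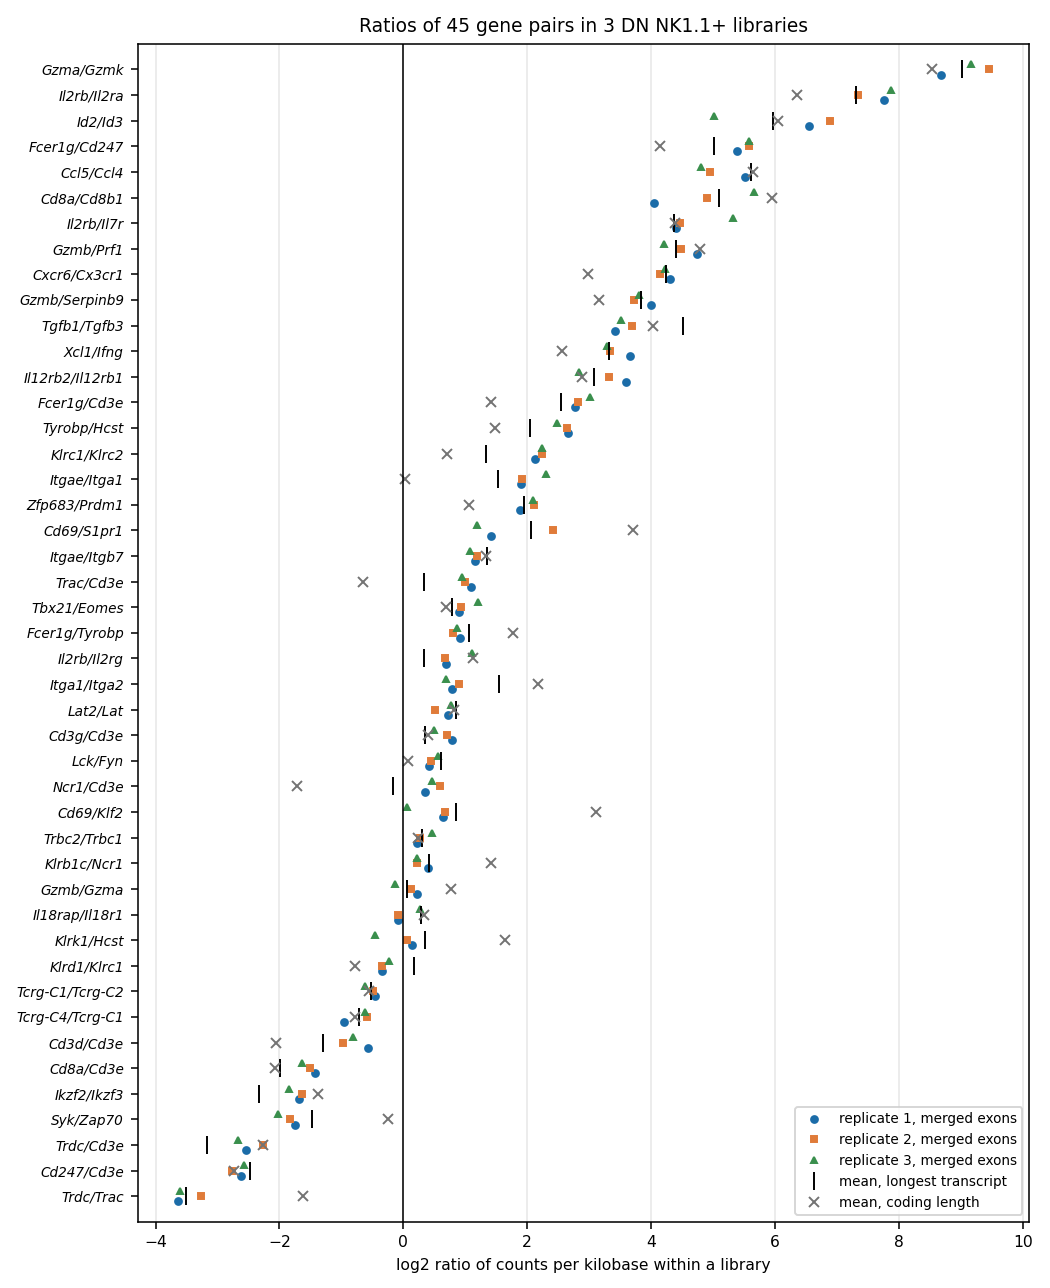
Log2 ratios of counts per kilobase for 45 gene pairs (vertical), with coloured symbols for the 3 replicates by merged exon length, bars for the mean by longest transcript and crosses for the mean by coding length. Gzma/Gzmk, Il2rb/Il2ra and Fcer1g/Cd247 lie far above 0 on every scale, Trdc/Trac lies below 0 on every scale, and the cross of Ncr1/Cd3e lies on the other side of 0 from its coloured symbols.

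Spread over the replicates was small for lymphocyte genes. Among 5777 protein-coding genes with a mean of at least 20 CPM, the highest library exceeded the lowest by a median of 1.21-fold, and by 1.59-fold at the 95th percentile. In 53 genes, or 0.917%, it was at least 2 times the lowest. None of the 182 list members at this level was among them, and their median was 1.18-fold and their maximum 1.81-fold. A share of 0 among 182 genes stands beside a background of only 0.917%, so it sets them little apart. The median coefficient of variation over all 5777 genes was 9.88%, above the 3.68% that counting error alone would give.

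Markers of other cell types made up 12 of the 53 genes that varied, out of 22 such markers with a mean of at least 20 CPM. Col3a1, a fibroblast collagen, was at 19.9, 1.09 and 42.1 CPM, a 38.7-fold range. Myh11 and Acta2, contractile genes of myoepithelium, were at 2.32, 5.02 and 57.6 CPM and at 5.94, 8.53 and 93.9 CPM. Fn1 was at 30.0, 7.02 and 51.2 CPM. Fabp4, of adipocytes and capillaries, was at 35.2, 2.51 and 24.3 CPM. Replicate 2 thus held the lowest level of the stromal genes Col3a1, Fn1 and Fabp4, and replicate 1 that of the milk and myoepithelial genes. Csn1s1 was at 63.6, 201 and 409 CPM, Wfdc18 at 5.85, 19.7 and 68.8 CPM, and Muc15 at 5.51, 16.8 and 37.9 CPM. Replicate 3 was highest in 37 of the 53 genes, replicate 1 in 9 and replicate 2 in 7. Among the 53 were 10 histone genes, all highest in replicate 3. Without replicate 3 the count was 15, and without replicate 1 it was 33. The symbol Zc3h11a names a pair of gene IDs. For one of them the levels were 52.6, 17.0 and 0 CPM, and for the other 79.8, 100.2 and 126 CPM, in the opposite order of replicates.

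**Figure D4:**
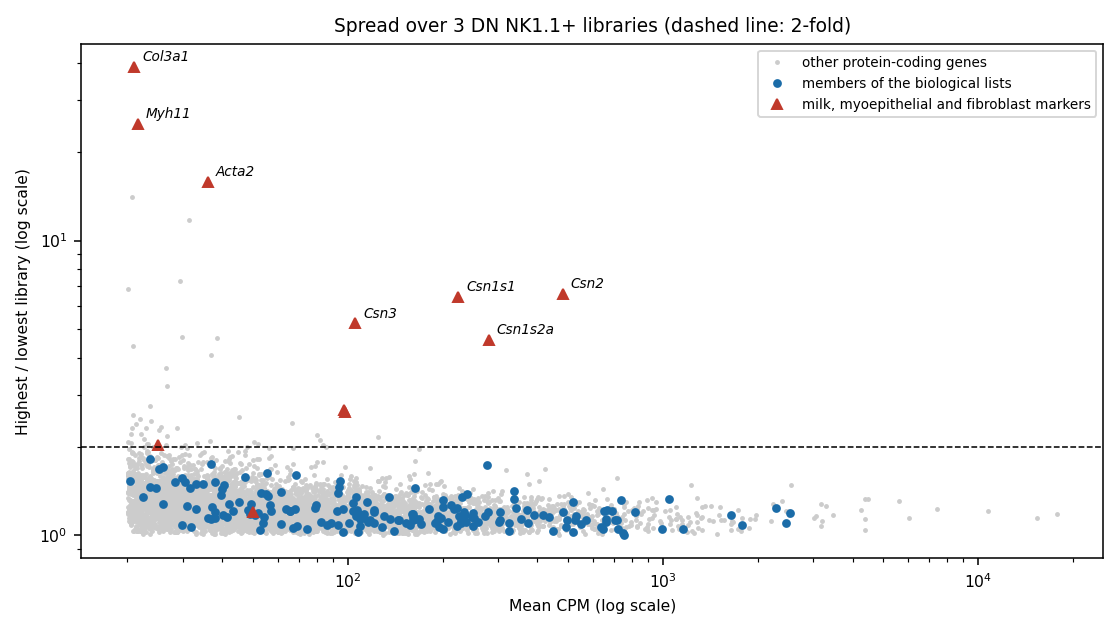
Highest over lowest library (vertical, log scale) against mean CPM (horizontal, log scale) for protein-coding genes with a mean of at least 20 CPM, with list members in blue, milk, myoepithelial and fibroblast markers in red and other genes in grey; the dashed line is 2-fold. All blue points lie below the line, while Col3a1, Myh11, Acta2 and the casein genes lie above it; Zc3h11a, with a level of 0 in 1 library, cannot be drawn.

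Summed markers of other immune cells differed less between libraries than those of the milk, myoepithelial and fibroblast lists. Single markers were not all steady. Lyz2, with a 2.105-fold range, was among the 53 genes that varied, and Igkc was highest in replicate 1, as given above. The 11 dendritic cell markers summed to 1044, 726 and 928 CPM, most of it from Cd74 (381, 229 and 344 CPM), Itgax (257, 279 and 267 CPM) and H2-Aa (228, 116 and 163 CPM). Itgax is also carried by NK cells and intraepithelial T cells. Of the 11 markers 5, or 45.45%, passed 10 CPM in each library, while Clec9a, Flt3 and Zbtb46 stayed below 3 CPM. Macrophage markers included Lyz2 at 110, 52.2 and 82.7 CPM and Csf1r at 38.6, 21.3 and 24.7 CPM. The 10 B and plasma cell markers summed to 557, 398 and 349 CPM, nearly all of it Igkc and Ighm. Of these 10 markers 3, or 30.0%, passed 10 CPM in each library. Ighm was at 277, 288 and 247 CPM, and the B cell marker Ms4a1 was at most 3.76 CPM. The 9 neutrophil markers summed to 2.84, 2.93 and 7.49 CPM. MHC class II genes and Lyz2 were lowest in replicate 2. The part of these cells in the levels of lymphocyte genes was not tested.

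**Figure D5:**
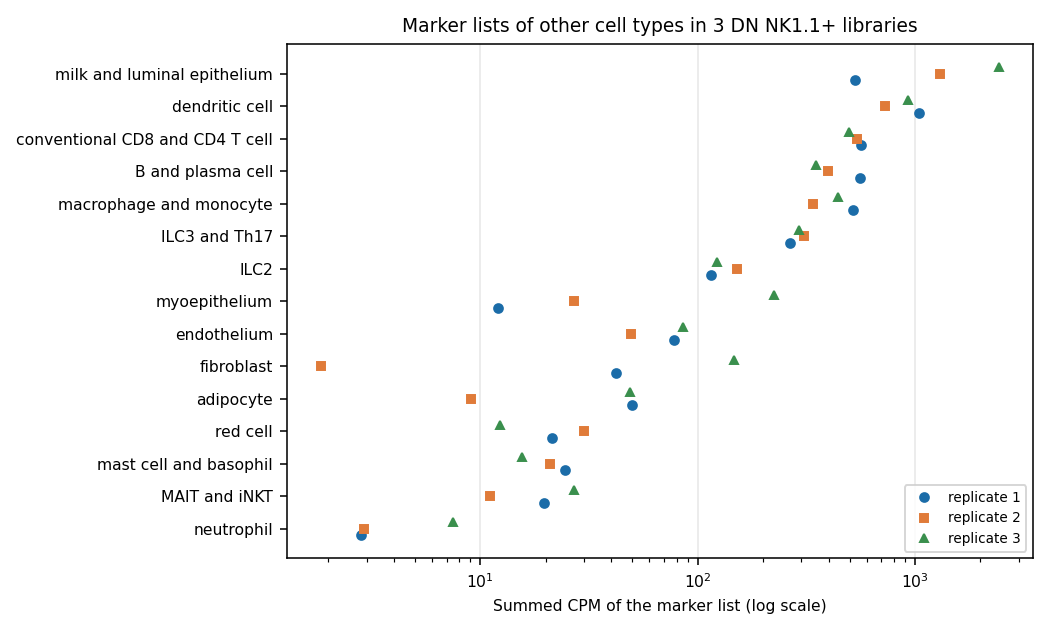
Summed CPM (horizontal, log scale) of 15 marker lists of other cell types in each of the 3 DN NK1.1+ libraries; symbols are replicates. The fibroblast and myoepithelial lists spread most widely, from 1.84 to 147 and 12.0 to 225 CPM, the milk and luminal list ran from 528 to 2440 CPM, while the dendritic cell list lies between 726 and 1044 CPM.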

How the data were processed

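Bulk RNA was measured in 6 libraries, of which the 3 labelled DN NK1.1+ are described. RNA isolation used RNeasy Micro and library preparation a Tecan kit, per the labels' protocols. The matrix that the authors deposited holds expected counts, as judged from its decimals and from totals that differ. The submitters' processing notes list mm10 and Cell Ranger 7.1.0, a single-cell tool. The aligner, counter, annotation and use of strand for the bulk libraries were not given in the sources used here. All 55450 gene IDs matched GENCODE M21 (mm10), which gave coordinates, gene types and lengths. Single-cell, hashtag and receptor libraries were not used here.

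Expected counts were rounded. The low-count filter (minimum count 10, minimum total 15) ran over all 6 libraries and left 13171 genes. CPM used TMM-scaled library sizes from edgeR 4.0.16 in R 4.3.3, and no count test was run. Levels of different genes were compared per kilobase of merged exon, with longest transcript and coding length as alternatives. Only rank, ratio and spread over the 3 libraries were computed, with pandas 2.3.3. The spread count was tested on simulated data. Transcripts were cut into 50-base windows to find sequence shared with other genes. The members and lists were chosen with earlier results of these data known. Named genes are the 6 markers, the sort genes, both genes of each of 45 pairs, the 3 highest per kilobase in each list, the 15 highest overall and the 10 that varied most. TCR, NK receptor, adaptor, cytotoxic and residency genes could all be named. Some genes that the rule names are not reported here. Other list members and the histone genes are examples chosen after their values were seen. Alternatives were other scalings, lengths, level minimums, unrounded values and leaving out each replicate.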

Additional observations from a re-analysis of the deposited data

How the results depend on the processing

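No paired analysis was possible because no result comes from a test between groups. The count of genes that varied at least 2-fold, 53, depended on the level minimum, at 171 for a mean of at least 10 CPM and 13 for at least 50 CPM. It ran from 15 to 39 when each replicate was left out, with 33 without replicate 1 and 15 without replicate 3. The median level of list members was 59.2 CPM and lay between 56.7 and 60.7 CPM when each replicate was left out. Length reversed some ratios on the log2 scale: Trac/Cd3e was −0.65 by coding length and −1.11 with no length scaling, and Ncr1/Cd3e was −0.17 by longest transcript, −1.72 by coding length and −0.94 with no length scaling. Klrk1/Hcst, at −0.09, was 0.35 by longest transcript, 1.64 by coding length and 3.23 with no length scaling. Klrd1/Klrc1 was 0.17 by longest transcript and Lck/Fyn was −0.10 with no length scaling. The count of list members at the level minimum lay between 182 and 212 under all alternatives run, and the count in the top 500 between 46 and 63. Other scalings moved named levels by at most 1.02-fold. Leaving out replicate 3 lowered Id3 by 1.91-fold, to 1.49 CPM, and leaving out replicate 1 lowered Cd8b1 to 1.69 CPM. Depth limits genes under the floor of 3 counts, and 3 libraries limit every error given.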

Other observations

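Genes of the cell cycle were read in all 3 libraries. Of 16 genes 14, or 87.5%, passed 10 CPM in each library. Pcna, a clamp of DNA replication, led per kilobase, at 215, 222 and 231 CPM. Mki67, which marks cycling cells, was at 580, 544 and 532 CPM, and Top2a, a topoisomerase of dividing cells, at 198, 184 and 210 CPM. Stmn1 was at 78.0, 88.4 and 114 CPM. Aurkb and Ccnb1 did not pass 10 CPM in each library. No gene of this list varied by 2-fold among those with a mean of at least 20 CPM, although the histone genes named above did.

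Checkpoint and costimulatory receptors were mixed. Of 16 genes 9, or 56.25%, passed 10 CPM in each library. They were led per kilobase by Tigit, Tnfrsf9 (4-1BB) at 126, 134 and 126 CPM and Cd160 at 116, 118 and 103 CPM. Pdcd1 (PD-1) was at 0.43, 0.418 and 2.35 CPM, Havcr2 (TIM-3) at 4.82, 1.67 and 1.82 CPM, and Ctla4 at 6.11, 7.94 and 7.72 CPM. Nt5e (CD73) and Entpd1 (CD39), enzymes that together turn extracellular ATP into adenosine, were at 158 ± 7.49 and 93.1 ± 3.78 CPM (SD, n = 3). Mitochondrial DNA gave 8.54%, 8.80% and 7.28% of counts in replicates 1, 2 and 3.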
